A study of Mus musculus with 6 samples.

Results

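Interferon-stimulated antiviral genes were followed in RAW264.7 cells, a mouse macrophage line, as 43 named genes among the 24062 genes of the count tables. The members were chosen by name, as genes known to be switched on by interferons in the defence against viruses. They were chosen with earlier results of these data known. All 43 were found in each of the 6 libraries. M0 cells were unstimulated, M1 cells had received LPS at 100 ng/mL with IFN-γ at 20 ng/mL for 24 h, and M2 cells had received IL-4 at 20 ng/mL for 24 h. RM0, RM1 and RM2 were the corresponding cells irradiated with 10 Gy of gamma rays and cultured for a further 24 h. Whether the non-irradiated cells were also kept for those 24 h was not given in the sources used here, so irradiation and time in culture cannot be told apart. Each condition was 1 library of RNA pooled from 5 wells, so no condition had a replicate, and in bulk RNA fewer cells of a type and less RNA per cell cannot be told apart. The tissue field of the labels named bone marrow, whereas the cell line field named RAW264.7.

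Total counts ran from 17894937 to 18870516 per library. Of 8 macrophage markers, 7 were found by symbol and all had counts in every library, the lowest being 646. The lymphocyte markers Cd3e, Cd3g and Ms4a1 were at 0 in every library. Of 5 fibroblast markers, the collagens Col1a2 and Col3a1 were at 0 throughout, but the summed list ran from 120 to 185 counts in M0, M2, RM0 and RM2 against 631 in M1 and 730 in RM1, nearly all from Dcn, and its part in the M1 results was not tested. The 3 dendritic cell markers summed to 15 to 32 counts, with Siglech at 0.

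Type I interferons signal through IFNAR and the kinases TYK2 and JAK1 to a transcription factor complex with STAT2 and IRF9, which binds interferon-stimulated response elements (ISREs) in the promoters of antiviral genes. IFN-γ signals through its own receptor mainly to gamma-activated sites (GAS), and part of the antiviral programme answers to both. In macrophages LPS can add an autocrine IFN-β loop through TLR4, and IRF7, itself a member of the programme, amplifies interferon production.

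RefSeq promoter windows (GRCm38.p6, 250 bases before to 50 bases after the start of transcription) were found for 33 of the 43 genes. They were searched on both strands for an ISRE core, taken as GAAA and GAAA separated by any 2 bases, which reads TTTC, 2 bases and TTTC on the other strand. The core was in 16 of the 33 promoters (48.5%), against 3.99% of the 27025 genes with a promoter entry. A stricter form, in which a C follows the second GAAA, was in 13 of them (39.4%) against 0.944%. A GAS motif, TTC and GAA separated by any 3 bases, was in 9 (27.3%) against 9.55%, and it overlapped an ISRE core in Bst2 and Ifitm3. The stretches below lie upstream of the start site and show, in capitals, how the cores are arranged in Ifit1, Isg15 and Rsad2, members long used as readouts of interferon action, and in Ifit3, the gene with a core that had the highest M1 value. In Isg15 3 cores overlap in a single run.
Ifit1 (chr19:34640744-34640870, plus strand): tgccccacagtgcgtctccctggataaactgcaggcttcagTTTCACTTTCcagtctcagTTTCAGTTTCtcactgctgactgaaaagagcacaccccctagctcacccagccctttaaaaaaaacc
Ifit3 (chr19:34583359-34583528, plus strand): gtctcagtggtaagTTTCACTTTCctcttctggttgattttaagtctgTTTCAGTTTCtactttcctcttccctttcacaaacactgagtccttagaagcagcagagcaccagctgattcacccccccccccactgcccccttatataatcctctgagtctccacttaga
Isg15 (chr4:156200819-156200988, minus strand): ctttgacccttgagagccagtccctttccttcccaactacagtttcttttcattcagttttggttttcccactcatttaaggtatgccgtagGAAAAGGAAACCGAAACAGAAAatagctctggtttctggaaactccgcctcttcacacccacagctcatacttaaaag
Rsad2 (chr12:26456453-26456622, minus strand): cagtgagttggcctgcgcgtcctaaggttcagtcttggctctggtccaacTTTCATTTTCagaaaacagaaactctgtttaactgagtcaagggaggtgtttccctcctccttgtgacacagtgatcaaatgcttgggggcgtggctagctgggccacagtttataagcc

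The other 17 promoters had no such core in their window. Irf7 is shown because it held the largest share of member counts in M1, Oasl2 because it had the highest M1 value of the genes without a core, and Adar because it had the lowest. A match, or the lack of one in this window, is a description of the sequence and not of a bound factor.
Irf7 (chr7:141266482-141266594, minus strand): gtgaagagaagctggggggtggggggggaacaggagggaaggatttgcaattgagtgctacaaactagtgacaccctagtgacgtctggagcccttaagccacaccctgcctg
Oasl2 (chr5:114896764-114896933, plus strand): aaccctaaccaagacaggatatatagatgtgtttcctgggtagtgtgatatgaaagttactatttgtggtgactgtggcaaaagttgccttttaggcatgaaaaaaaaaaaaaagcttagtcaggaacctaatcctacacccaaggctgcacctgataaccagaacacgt
Adar (chr3:89714852-89715021, plus strand): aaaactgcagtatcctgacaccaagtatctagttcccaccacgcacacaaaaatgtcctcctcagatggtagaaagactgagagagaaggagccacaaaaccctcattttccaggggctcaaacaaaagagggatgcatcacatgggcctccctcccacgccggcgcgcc

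Nearly the whole programme was higher after M1 polarization. All 43 genes were higher in M1 than in M0, where 48.6% of all genes were, and 30 of them were so by at least 2-fold, against 9.28% of all genes. The median log2 fold change of the members was 1.48 (range 0.07 to 5.18), against -0.03 over all genes with at least 10 counts in either library. After irradiation all 43 were again higher in RM1 than in RM0 (49.5% of all genes) and 30 of them at least 2-fold (6.16% of all genes), with a median of 1.33 (range 0.09 to 3.88). No member was 2-fold lower in M1 than in M0 or in RM1 than in RM0, as 13.4% and 7.88% of all genes were. The members together took 0.458% of all counts in M0 (exact binomial interval 0.455 to 0.461), 1.18% in M1 (1.18 to 1.19) and 0.962% in RM1 (0.957 to 0.966). In M2 this share was 0.424%, in RM0 0.435% and in RM2 0.351%.

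A test was possible only by treating the other factor's states as replicates. In an edgeR quasi-likelihood fit with polarization and irradiation as additive terms over the 6 libraries, 42 of 43 members rose with M1 polarization at an adjusted p under 0.05, where 23.2% of the 11804 genes tested rose. The strongest was Rsad2 (log2 3.82 ± 0.15 SE, adjusted p = 1.58e-07), which encodes viperin, an enzyme that makes a chain-terminating nucleotide. The one that did not pass was Adar, the RNA-editing adenosine deaminase (log2 0.08 ± 0.12, adjusted p = 0.61). The fit assumes the same M1 effect with and without irradiation. Log2 fold changes are given after TMM scaling. Scaling by library totals shifted the median of all genes to -0.46 in M1 against M0, to -0.25 in RM1 against RM0 and to 0.13 in RM1 against M1. Adar fell below 0 under that scaling in both M1 comparisons, whereas the other 42 genes stayed above 0.

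**Figure D1:**
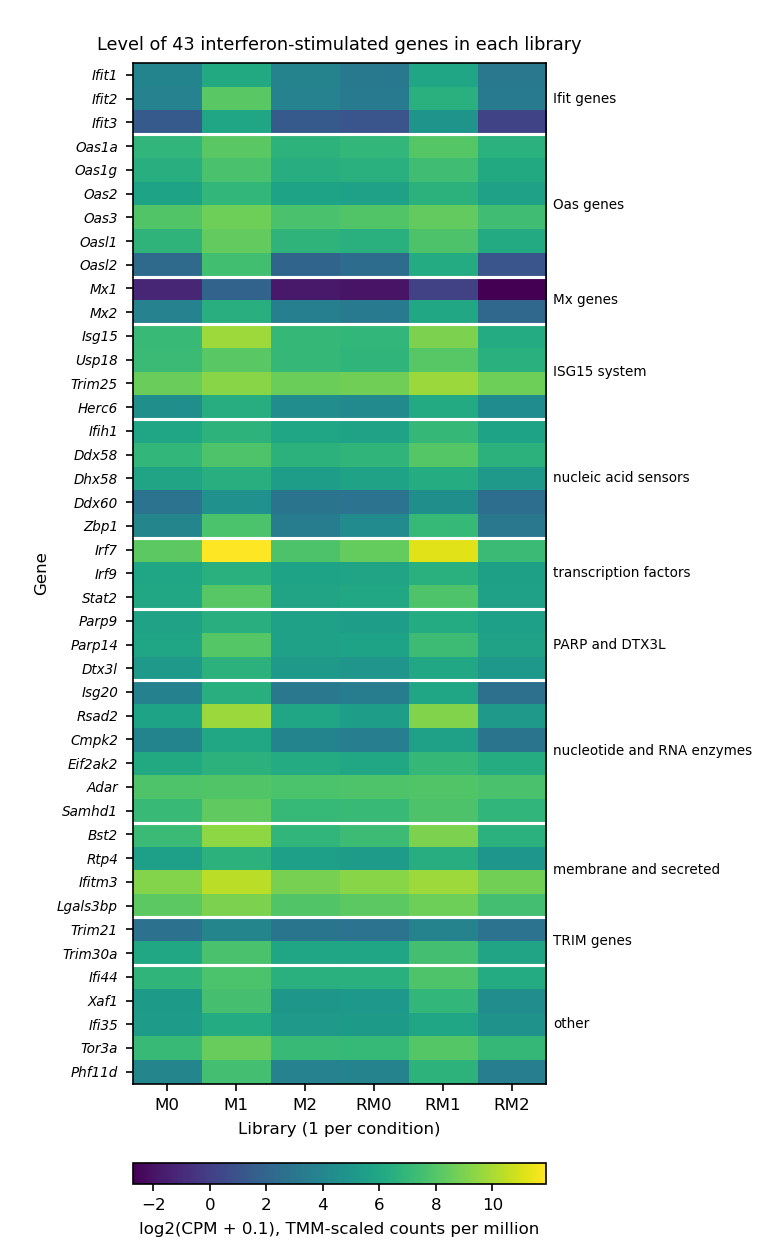
Heat map of the level of each of the 43 genes (vertical axis, grouped by role) in the 6 libraries (horizontal axis, 1 per condition), as log2 of TMM-scaled CPM plus 0.1. The M1 and RM1 columns are brighter for nearly all genes, and Mx1 is the darkest gene in every column, with 54 counts at most.

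Ifit genes encode tetratricopeptide proteins that bind viral RNA with a foreign 5′ end, and they lie together on chromosome 19. Ifit2 (chr19:34550694-34576534) had 260 counts in M0 cells, 4273 in M1 cells and 273 in M2 cells, and after irradiation 185 in RM0, 1570 in RM1 and 195 in RM2. Ifit3 (chr19:34583529-34588982), whose promoter carries a pair of ISRE cores, had 50, 861, 52, 40, 466 and 22 counts in the same order. For Ifit1 (chr19:34640889-34650009) the counts were 284, 1032, 282, 174, 995 and 171. All of these genes were highest in M1, next in RM1, and well below both in the other 4 libraries. Ifit3 was 22.2-fold higher in M1 than in M0 (log2 4.47, 95% counting interval 4.12 to 4.97). Ifit2 was 21.8-fold higher (log2 4.45, 4.28 to 4.65), but in RM1 it stood at only 0.327 of its M1 level (log2 -1.61, -1.70 to -1.53). Ifit1 differed less between RM1 and M1 (log2 -0.22, -0.35 to -0.10, and -0.42 with the trend in the GC content of transcripts removed), while it was lower in RM0 than in M0 (log2 -0.68, -0.97 to -0.41) and in RM2 than in M2 by the same amount. The intervals throughout cover counting error only. About 31.7% of the Ifit3 transcript is shared, in windows of 100 bases, with Ifit3b, so its counts are uncertain to that extent.

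Oas genes encode oligoadenylate synthetases, which on binding double-stranded RNA make the activator of RNase L, and the Oasl genes encode related proteins. Oasl2 (chr5:114896934-114912245) showed the largest log2 fold change in M1 of all 43 genes, with 96 counts in M0 cells, 2661 in M1 cells and 79 in M2 cells, and after irradiation 102 in RM0, 1307 in RM1 and 42 in RM2. It was 36.3-fold higher in M1 than in M0 (log2 5.18, 4.92 to 5.52) and 14.8-fold higher in RM1 than in RM0 (log2 3.88, 3.62 to 4.22). Its RM1 level was 0.437 of that in M1 (log2 -1.20, -1.29 to -1.10). The rest of the family was far more even across the libraries, and was well expressed already in M0. Oas3 had 4847, 5908, 4213, 4682, 5594 and 3350 counts in the library order used above. Oas1a had 2353, 4216, 2182, 2379, 4373 and 1972 counts. For both, M1 and RM1 were above the other 4 libraries, but the log2 fold change in M1 was only 0.71 for Oas3 and 1.26 for Oas1a. Oas1g followed Oas1a, with 1769, 3086, 1679, 1807, 2843 and 1420 counts, though 40.9% of the Oas1a transcript is shared with Oas1g and reads of the pair may be split between them. Oas2 had 1067, 1841, 1083, 958, 1716 and 997 counts. Oasl1, which restrains IRF7 translation, had 2220, 4846, 2271, 1810, 3705 and 1490 counts and was lower in each irradiated library than in its partner (log2 -0.28, -0.56 and -0.58 for RM0, RM1 and RM2).

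Mx genes can encode dynamin-like GTPases that trap viral nucleocapsids, but both were listed here as non-coding RefSeq transcripts. GENCODE M21 has Mx2 as a polymorphic pseudogene and Mx1 as protein-coding, and whether these cells made either protein was not measured. Mx1 (chr16:97447035-97462906) was the least abundant member, with 7 counts in M0 cells, 54 in M1 cells and 4 in M2 cells, and after irradiation 3 in RM0, 17 in RM1 and 1 in RM2. Mx2 (chr16:97536081-97560901) had 266, 1333, 241, 182, 1066 and 91 counts. Both were highest in M1 and lowest in RM2. Mx1 was lower in RM1 than in M1 (log2 -1.74, -2.72 to -1.03), and its counts outside M1 and RM1 were too few for a fold between them. Mx2 kept its M1 induction after irradiation (log2 2.74 in M1 against M0 and 2.77 in RM1 against RM0), and stood lower in RM2 than in M2 (log2 -1.35, -1.74 to -1.02).

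ISG15 is a ubiquitin-like modifier, which HERC6 attaches to proteins in the mouse and USP18 removes, while TRIM25 is a ubiquitin ligase that activates RIG-I. Isg15 (chr4:156199424-156200818) had 2841 counts in M0 cells, 12669 in M1 cells and 2586 in M2 cells, and after irradiation 2394 in RM0, 8439 in RM1 and 1543 in RM2. Each irradiated library was below its partner, by log2 -0.23 (-0.31 to -0.15) for RM0, -0.76 (-0.80 to -0.72) for RM1 and -0.71 (-0.81 to -0.62) for RM2. Usp18 had 2973, 4291, 2663, 2271, 4523 and 1868 counts in the library order used above. Herc6 had 462, 1221, 435, 377, 1216 and 414 counts, of which those on its overlap with the annotated gene Gm45193 cannot be assigned. Trim25 had 7587, 9175, 8001, 8337, 13746 and 7934 counts. Usp18 stood in RM1 at a log2 fold change of -0.10 from M1 and Herc6 at -0.18, which with the trend in GC content removed came to -0.06 and -0.47, beside -0.67 for Isg15. Trim25 was highest in RM1 (log2 0.41 above M1, 0.37 to 0.45).

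Nucleic acid sensors differed widely in their M1 values, from log2 0.66 for Dhx58 to 3.88 for Zbp1. Ddx58, which encodes RIG-I, had 2482 counts in M0 cells, 3430 in M1 cells and 2079 in M2 cells, and after irradiation 2264 in RM0, 4402 in RM1 and 2046 in RM2. Ifih1, which encodes MDA5, had 1174, 1548, 1174, 1019, 2188 and 1050 counts. Dhx58, which encodes their regulator LGP2, had 1111, 1308, 902, 994, 1353 and 691 counts. For Ddx58 and Ifih1, RM1 was the highest library, above M1 by log2 0.19 (0.12 to 0.25) and 0.33 (0.23 to 0.42). Zbp1 (chr2:173206612-173218922), a sensor of left-handed nucleic acid that can trigger necroptosis, had a different pattern, with 293, 3251, 213, 386, 2220 and 171 counts. It was 14.8-fold higher in M1 than in M0 (interval of the log2 value 3.72 to 4.07). Ddx60, a helicase linked to RIG-I signalling, was scarce, with 142, 377, 151, 136, 383 and 114 counts, and its counting interval in RM1 against M1 included 0 (log2 -0.15, -0.36 to 0.06), though with the trend in GC content removed the value was -0.42.

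The transcription factors of the programme were led by Irf7 (chr7:141263183-141266424), with 5965 counts in M0 cells, 56496 in M1 cells and 4470 in M2 cells, and after irradiation 6777 in RM0, 39961 in RM1 and 3050 in RM2. It alone made up 25.9% of all member counts in M1 and 22.0% in RM1, against 7.13% in M0. Its exons overlap those of Phrf1 on the other strand. Without Irf7 the other 42 genes still took 0.876% of the M1 library and 0.426% of the M0 library. Stat2 had 1294, 4082, 1121, 1272, 3960 and 988 counts, and Irf9, its partner in the ISRE-binding complex, had 1180, 1399, 1092, 1084, 1542 and 966. The partners of this complex were thus unequal in M1, with a log2 fold change of 2.08 (1.99 to 2.17) for Stat2 and 0.67 (0.55 to 0.78) for Irf9.

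Among the enzymes that act on nucleotides and RNA, Rsad2 (chr12:26442743-26456452) had 1061 counts in M0 cells, 12449 in M1 cells and 1188 in M2 cells, and after irradiation 864 in RM0, 9317 in RM1 and 716 in RM2. It was 15.7-fold higher in M1 than in M0 and lower in RM1 than in M1 (log2 -0.59, -0.63 to -0.55). Cmpk2, a mitochondrial nucleotide kinase encoded next to Rsad2, had 290, 974, 291, 223, 820 and 147 counts (log2 2.16 in M1 against M0). Isg20, an RNA exonuclease, ranged from 126 to 1262 counts and was higher by log2 2.70 in M1 than in M0 and by 2.48 in RM1 than in RM0. Samhd1, which removes deoxynucleotides, ranged from 2337 to 4801 counts and had a log2 fold change of 1.20 in M1 against M0, which fell short of 2-fold under scaling by library totals (0.76), and of 0.67 in RM1 against RM0. Eif2ak2 encodes PKR, the kinase that stops translation, and had a log2 fold change of 0.50 (0.40 to 0.61) in M1 against M0 and 1.03 (0.93 to 1.13) in RM1 against RM0. The second value was below 2-fold with library totals (0.78) and with the trend in GC content removed (0.87). Adar was flat, with 3580 to 4579 counts in all 6 libraries.

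Of the ADP-ribosylation genes, Parp14, an ADP-ribosyltransferase, was higher in M1 by log2 2.16 and Dtx3l, a ubiquitin ligase, by 1.48, but Parp9, which works in a complex with DTX3L, only by 0.73. The exons of Parp9 and Dtx3l overlap on opposite strands, and the interval listed for Dtx3l covers 2.64% of the annotated gene. Per transcript length, Ifitm3, which blocks fusion of viruses with endosomes, had the highest RPKM in every library (859 in M0, 1980 in M1 and 1300 in RM1). On the same RPKM scale Irf7 came next in M1 at 1710, followed by Isg15 at 1130 and Bst2, which encodes the virion tether tetherin, at 871. In M0 the order after Ifitm3 was Bst2 at 191, Isg15 at 190 and Irf7 at 135. Against M0, the log2 fold change in M1 was 2.19 for Bst2 and 1.20 for Ifitm3. Rtp4, a chaperone of membrane receptors, and Lgals3bp, a secreted glycoprotein, were higher in M1 by log2 1.13 and 0.82.

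The remaining genes were also higher in M1. Trim21, a cytosolic antibody receptor, was higher by log2 1.12 and Trim30a, a TRIM protein, by 1.68. Phf11d, a PHD finger gene, was higher by 3.57 and Xaf1, a partner of the apoptosis inhibitor XIAP, by 2.32. Tor3a, a torsin ATPase gene, was higher by 1.36, whereas Ifi44 and Ifi35 stayed below 2-fold at 0.95 and 0.86.

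Presence of an ISRE core did not order the M1 values. M1 against M0 gave a median of 1.47 on the log2 scale for the 16 genes with a core and 1.55 for the 17 without one. The range was 0.50 (Eif2ak2) to 4.47 (Ifit3) with a core, and 0.07 (Adar) to 5.18 (Oasl2) without. In RM1 against M1 the medians were -0.22 with and -0.53 without. These are descriptions of the groups and were not tested.

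**Figure D2:**
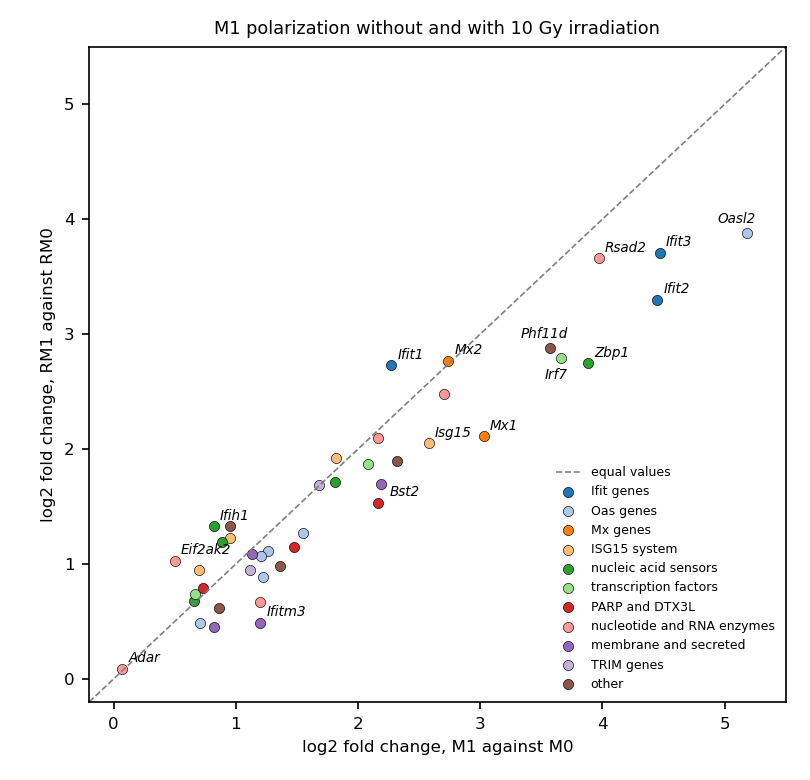
Scatter plot of the log2 fold change of M1 against M0 (horizontal axis) and of RM1 against RM0 (vertical axis), 1 point per gene, coloured by role, with a dashed line of equal values. Of the 43 genes, 29 lie below the line, Oasl2 the farthest (5.18 against 3.88), and Ifih1 and Eif2ak2 lie farthest above it.

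Induction by M1 polarization was compared without and with irradiation, which uses 4 different libraries. The fold change of 29 genes was smaller in the irradiated pair and that of 14 was larger, where 49.6% of all genes were smaller. The median difference was -0.22 on the log2 scale, against 0.0 over all genes. The most negative differences were those of Oasl2 (-1.30), Ifit2 (-1.15) and Zbp1 (-1.13), followed by Mx1 (-0.92) and Irf7 (-0.87). Ifit1 (0.46), Ifih1 (0.51) and Eif2ak2 (0.52) stood at the other end. With the trend in GC content removed, these genes stayed larger in the irradiated pair, but by less. The values in RM1 against RM0 and M1 against M0 were then 2.56 and 2.35 for Ifit1, 1.15 and 0.90 for Ifih1, and 0.87 and 0.58 for Eif2ak2. Some genes changed side in either direction, such as Herc6 (1.69 and 1.96) and Isg20 (2.66 and 2.65). The smaller median induction also depended on scaling. By library totals the members' median was 1.08 in RM1 against RM0 and 1.04 in M1 against M0, while all genes had -0.25 and -0.46. Genes that became larger in the irradiated pair under that scaling included Oas1a (0.86 and 0.82), Trim21 (0.71 and 0.69) and Rtp4 (0.84 and 0.69). Across the 43 genes the values of both pairs went together (Pearson r 0.95, Spearman rho 0.90), a description over genes of the same 4 libraries, which are not independent replicates.

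Most members stood slightly below their non-irradiated partner in all 3 states, though none passed the test of the additive fit given after the pairs. In RM0 against M0, 31 of 42 genes with at least 10 counts were below 0 (50.1% of all genes were), with a median log2 fold change of -0.14 (range -0.68 to 0.41). No member passed 2-fold in RM0, where 0.821% of all genes were at least 2-fold lower and 0.719% at least 2-fold higher. In RM1 against M1, 37 of 43 were below 0 (51.0% of all genes), with a median of -0.36 (range -1.74 to 0.41). Ifit2, Ifit3, Mx1 and Oasl2 were at least 2-fold lower (2.23% of all genes were) and none was 2-fold higher (3.08%). Under scaling by library totals 32 of 43 were below 0 in this pair, and Ifit3 no longer passed 2-fold (-0.91). In RM2 against M2, 38 of 42 were below 0 (50.5% of all genes), with a median of -0.27 (range -1.35 to 0.08). Ifit3 and Mx2 were at least 2-fold lower there (0.932% of all genes were), and none was 2-fold higher (1.03%). The median over all genes lay between -0.01 and 0.0 in these comparisons.

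Counting intervals lay wholly below 0 for 23 members in RM0 (14.8% of all genes), 34 in RM1 (30.2%) and 30 in RM2 (19.5%). They lay wholly above 0 for 5 in RM0 (16.9% of all genes), 5 in RM1 (27.0%) and 0 in RM2 (22.0%). The 3 irradiation comparisons share no library. Of the 42 genes with enough counts in each, 26 were below 0 in all 3, where 19.5% of all genes were. They included all Ifit genes, Isg15, Isg20, Rsad2, Cmpk2, Mx2, Oas2, Oas3, Oasl1, Usp18, Stat2 and Irf9. Trim25 was the single gene above 0 in all 3 (19.6% of all genes were), and under scaling by library totals no gene was. Irf7 changed side, being higher in RM0 than in M0 (log2 0.20, 0.15 to 0.25) but lower in RM1 than in M1 (-0.67, -0.69 to -0.65) and in RM2 than in M2 (-0.52, -0.59 to -0.45). Zbp1 was likewise higher in RM0 (log2 0.41, 0.19 to 0.64) and lower in RM1 (-0.72, -0.80 to -0.64).

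**Figure D3:**
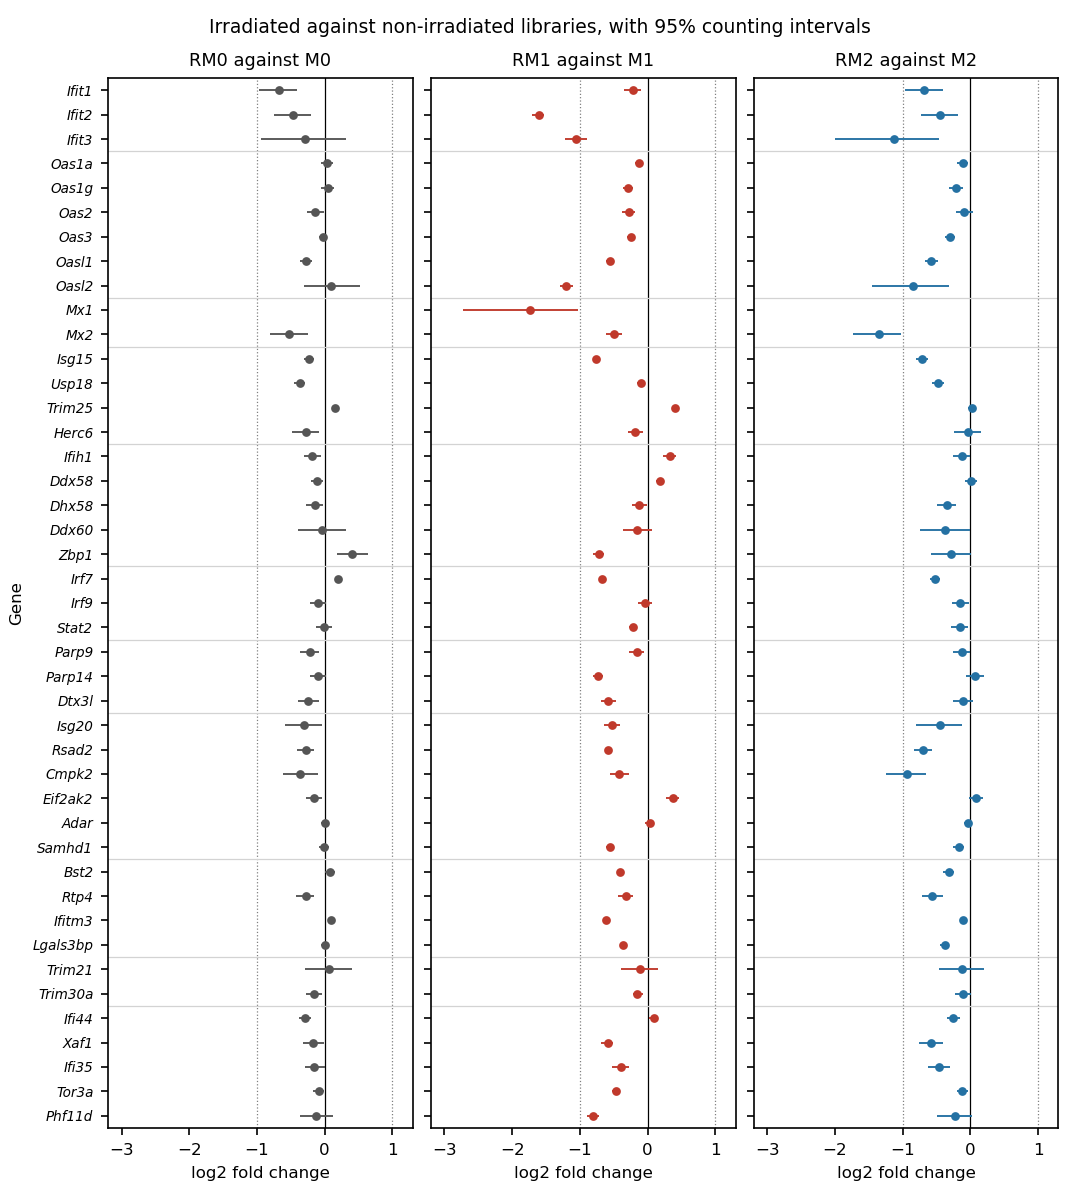
Log2 fold change (horizontal axis) of each gene (vertical axis, grouped by role) in RM0 against M0, RM1 against M1 and RM2 against M2, with 95% counting intervals as lines and dotted lines at 2-fold. Most points lie left of 0 in each panel, and Mx1, shown only where it had at least 10 counts, has the lowest value (-1.74).

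None of these shifts passed the test of the additive fit. The irradiation term was below 0 for 39 of 43 members, with a median of -0.23, but 0 passed an adjusted p of 0.05 in edgeR's quasi-likelihood test, where 0.178% of all genes passed as lower and 0.33% as higher. At an unadjusted p under 0.05, 17 members were lower and none was higher, against 6.89% and 7.76% of all genes. Ifit3 came nearest (log2 -0.91 ± 0.18 SE, adjusted p = 0.0618, from 0.000608 to 1.0 under the alternatives). A DESeq2 Wald test on the same design called Ifit3, Isg15, Mx2, Oasl1 and Rsad2 lower (5 members, against 0.313% of all genes). The count also depended on single libraries, since leaving out M0 gave 14 members lower (2.23% of all genes), RM0 13 (1.64%), M1 or RM1 10 (2.23% in either case), and M2 or RM2 1 (0.381% and 0.398%).

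A few members stood higher in RM1 than in M1, namely Trim25, Eif2ak2, Ifih1, Ddx58, Ifi44 and Adar. Fold changes in that pair went with the GC content of transcripts over all genes, the fitted trend being 0.13 at 45% GC and -0.15 at 55%. After removal of this trend Ifih1 was at 0.12, Ddx58 at 0.09 and Eif2ak2 at 0.20, Trim25 kept 0.42 and Ifi44 turned to -0.18. The members' median GC content was 49.4%, close to the 49.7% of all genes tested, and 38 of 43 members were then below 0 in RM1.

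In M2 cells most members stood slightly below M0, and none passed the test. In M2 against M0, 34 of 42 members were below 0 (51.3% of all genes), with a median log2 fold change of -0.13 (range -0.57 to 0.20). Under scaling by library totals 26 were below 0, with a median of -0.07 against 0.06 over all genes. No member passed 2-fold in M2 against M0 (0.442% of all genes were 2-fold lower and 0.995% higher). In RM2 against RM0, 34 of 42 were again below 0 (50.4% of all genes), with a median of -0.30. Oasl2, Zbp1, Irf7 and Mx2 were at least 2-fold lower there (0.953% of all genes were) and none was higher (1.64%). Irf7 had 3050 counts in RM2 against 6777 in RM0 (log2 -1.17, -1.23 to -1.11). Mx2 and Irf7 no longer passed 2-fold once the GC trend was removed. In the additive fit, 38 of 43 members were below 0 with M2 polarization and 0 passed edgeR's adjusted p of 0.05 (0.0254% of all genes were lower and 0.144% higher). At an unadjusted p under 0.05, 14 were lower and none was higher, as 4.45% and 5.63% of all genes were. A DESeq2 Wald test called 1 lower, as it did 0.119% of all genes.

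The signals that feed this programme were read from a list of 24 interferon signalling genes. Interferon transcripts had few counts or none. All 14 Ifna genes had 0 counts in every library, which allows a level of up to 0.168 CPM. Ifnb1, which encodes IFN-β, had 10 counts in M0 cells, 6 in M1 cells and 6 in M2 cells, and after irradiation 3 in RM0, 1 in RM1 and 0 in RM2. Genes of the list that were at least 2-fold higher in M1 than in M0 included Jak2, Socs1, Socs3, Irf1, Irf8 and Ptpn2, and Tlr4, the LPS receptor gene, was lower. In RM1 against M1, Socs1, Irf1 and Irf8 were at least 2-fold lower and Tlr4 was higher. In RM0 against M0 Ifnb1 alone passed 2-fold, with a counting interval that reached above 0 (log2 -1.23, -4.22 to 0.24). In RM2 against M2 no gene of the list with at least 10 counts did. Ifnb1 fell short of 10 counts in RM1, M1, RM2 and M2 and so was not called in those pairs. Its log2 fold change was -1.61 in RM1 against M1 and -1.90 in RM2 against M2, from very few counts.

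Irf1, a transcription factor induced by IFN-γ, had 419 counts in M0 cells, 8628 in M1 cells and 405 in M2 cells, and after irradiation 404 in RM0, 1710 in RM1 and 343 in RM2. It was at 0.176 of its M1 level in RM1 (log2 -2.50, -2.58 to -2.43). Irf8 had 1493, 6225, 1317, 1552, 2052 and 1086 counts. Socs1, which inhibits JAK kinases, had 18, 205, 35, 24, 63 and 26. In RM1 against M1 the log2 fold changes of Irf1 (-2.50), Socs1 (-1.84) and Irf8 (-1.77) were all below the lowest of the 43 antiviral genes, the -1.74 of Mx1, whose wide interval (-2.72 to -1.03) covers them.

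Genes that answer mainly to IFN-γ were taken as a second list, of 19, also chosen with earlier results of these data known. In M1 against M0, 14 of the 17 with enough counts were at least 2-fold higher (9.28% of all genes were), with a median log2 fold change of 3.13. The 3 genes below 0 there were H2-Ab1 (-0.97), H2-Eb1 (-0.67) and Cd74 (-0.06). In RM1 against M1, 13 of 17 were at least 2-fold lower (2.23% of all genes were), with a median of -1.49. They included H2-Eb1, from only 13 counts in M1 and 1 in RM1. The antiviral genes had 4 of 43 and -0.36, and the difference between the lists was not tested. Of the list, Gbp5 and Gbp2, guanylate-binding proteins, which attack the vacuoles of intracellular microbes, had the largest log2 fold changes in M1 against M0, at 7.90 and 6.52. Gbp2 had 86, 6032, 35, 57, 726 and 34 counts, and stood in RM1 at 0.107 of its M1 level (log2 -3.22). Gbp5 had 14, 2872, 7, 12, 385 and 5 counts (log2 -3.06). Cxcl9, an IFN-γ-induced chemokine, had 54 counts in M1, 3 in RM1 and 0 elsewhere. Iigp1, an immunity-related GTPase, had 3, 138, 2, 0, 13 and 0 counts. Iigp1 and Gbp5 were the 2 genes of the list with an irradiation term below 0 past the threshold in the additive edgeR fit (log2 -3.60 and adjusted p = 0.00791 for Iigp1, log2 -2.70 and adjusted p = 0.0117 for Gbp5). The counts behind both terms were nearly all in M1 and RM1, and Gbp5 had a log2 fold change of only -0.18 in RM0 against M0 and -0.33 in RM2 against M2. Both calls were lost under at least one alternative, where the adjusted p reached 1.0. In RM0 and RM2 the medians of the list were close to those of the antiviral genes, at -0.22 and -0.34.

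**Figure D4:**
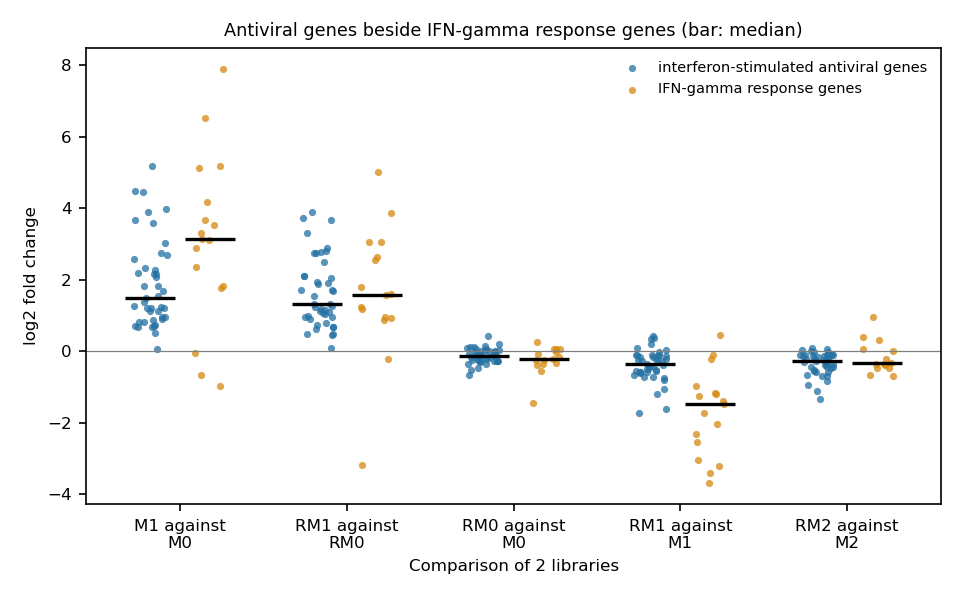
Log2 fold change (vertical axis) of the antiviral genes (blue) and of the IFN-γ response genes (orange) in 5 comparisons of 2 libraries (horizontal axis), 1 point per gene with at least 10 counts, with bars at the medians. In RM1 against M1 the bar of the IFN-γ response genes lies at -1.49 and that of the antiviral genes at -0.36, whereas in RM0 and RM2 the bars lie close together.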

How the data were processed

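Total RNA of RAW264.7 cells was sequenced as paired reads, and the submitters' processing notes name Trimmomatic 0.36, HISAT2 2.2.1, HTSeq 0.11.3 and the build mm10. The values the authors deposited are raw read counts per gene, not normalized, 1 column per library. Whether counting used strand was not given in the sources used here, so reads of overlapping genes on opposite strands cannot be told apart. Groups were taken from the sample titles.

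Counts were scaled by TMM (edgeR 4.0.16, R 4.3.3), and log2 fold changes carry a prior count of 2. A gene was called at 2-fold or more if either library of the pair held at least 10 counts for it. Exact 95% intervals were made for each pair. The quasi-likelihood fit kept genes that reached 10 counts in 2 libraries or more, and had 2 residual degrees of freedom and Benjamini-Hochberg adjustment over all 11804 genes. It was also run on simulated counts with no polarization effect and an irradiation effect equal in every state. Every gene was given a biological coefficient of variation of 0.1 there. Of 200 genes changed there by log2 1, 185 were recovered, with 8 false calls. Those counts cannot show how the fit behaves where effects differ between states or are smaller than log2 1. RPKM used RefSeq-matched transcript lengths from GENCODE M21.

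The members and lists were chosen with earlier results of these data known. All 43 members were named. Counts in every library were given for the Ifit, Oas, Mx, ISG15, sensor and transcription factor genes and members called between irradiated and non-irradiated or M2 and M0 libraries, and for Rsad2 and Cmpk2 after their values were seen. Of the other lists, Ifnb1, Irf1, Irf8, Socs1 and those with the largest changes were named, and some listed genes are not reported here. Alternatives were scaling by totals or DESeq2 1.42.0 size factors, the DESeq2 test, a prior count of 0.25, other filters, fits without the other factor, each library left out, and, added after seeing the data, removal of the GC trend.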

Additional observations from a re-analysis of the deposited data

How the results depend on the processing

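Of 70 member changes called at 2-fold or more over the 7 pairs, none reversed, and 70 still passed with DESeq2 size factors, 70 with a prior count of 0.25, 67 after removal of the GC trend and 53 under scaling by library totals. Removal of the GC trend ended the calls of Eif2ak2 in RM1 against RM0 and of Mx2 and Irf7 in RM2 against RM0. Scaling by totals ended that of Ifit3 in RM1 against M1, those of Oas1a, Oas1g, Oas2, Trim21, Rtp4, Ifitm3, Samhd1 and Tor3a in M1 against M0, those of Oas1a, Oas2, Usp18, Ddx58, Eif2ak2, Dtx3l and Rtp4 in RM1 against RM0, and that of Mx2 in RM2 against RM0. Scaling by totals moved the median of RM1 against M1 to -0.22, of M1 against M0 to 1.04 and of RM1 against RM0 to 1.08, with the median of all genes moving too. Removal of the GC trend left 2 of the 4 members called in RM2 against RM0. For the irradiation term, the count past the adjusted p went from 0 to 5 with the DESeq2 test (0.313% of all genes were called lower). It went to 5 with no count filter (0.389% of all genes), and to 1 to 14 when single libraries were left out. For M1 polarization it was 42 in the main fit, but Oas3, Lgals3bp, Dhx58, Eif2ak2 and Ifitm3 missed 0.05 in at least 1 alternative fit. For M2 polarization it went from 0 to 1 with DESeq2 and to 0 to 15 when single libraries were left out (4 without M0, where 0.678% of all genes were called lower, 15 without M1, with 5.48%, and 15 without RM1, with 5.46%). Leaving out a library removes the partner's information on irradiation too, and why the counts differ was not tested. No block on replicates could be fitted, since each condition was 1 library. The polarization term of the additive fit sets each irradiated library against its partner of the same state. With or without that term 0 members passed for irradiation. With 1 library per condition, depth limits the low genes most: Mx1 had 1 to 7 counts outside M1 and RM1, and no fold between those libraries was given.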
